A study of Mus musculus with 22 samples.

Results

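The 10 iron and metal handling genes described here are Hamp, Tfrc, Slc40a1, Fth1, Ftl1, Trf, Mt1, Mt2, Slc39a14 and Cp. They were chosen by gene symbol, and all 10 were found among the 24011 genes with a single symbol on the arrays. Levels were read in liver RNA of 22 female C57BL/6J mice aged 12 weeks, with 1 Affymetrix MoGene 2.0 ST array per mouse. KO_UDCA mice (n = 6) lacked Cyp2c70, a cytochrome P450 of muricholic acid synthesis, and ate chow with 0.1% ursodeoxycholic acid (UDCA), a hydrophilic bile acid, for 7 weeks from the age of 5 weeks. KO_chow mice (n = 5) carried the same knockout and ate regular chow. WT_UDCA mice (n = 6) were wild type on the UDCA diet, and WT_chow mice (n = 5) were wild type on regular chow. The labels do not say how the knockout allele was made.

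Iron reaches the liver bound to transferrin (Trf), enters cells through transferrin receptor 1 (Tfrc), is stored in ferritin (Fth1 and Ftl1 encode its heavy and light chains) and leaves through ferroportin (Slc40a1). Hepatocytes secrete hepcidin (Hamp), a peptide hormone that makes ferroportin be degraded, and its gene is driven by bone morphogenetic protein (BMP) signals that report iron stores and by interleukin 6 through STAT3. Slc39a14 imports iron, zinc and manganese that is not bound to transferrin, the metallothioneins Mt1 and Mt2 bind zinc and copper, and Cp encodes ceruloplasmin, the copper ferroxidase of plasma that oxidises iron as it leaves cells.

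Promoter sequences are shown where a known control element of these genes could be read from them. RefSeq promoter windows (assembly GRCm38.p6) reach from 250 bases before to 50 bases after a transcript start, and 7 of the 10 genes have one in the table used. Both strands were searched for a STAT motif (TTCNNNGAA), the core of a BMP response element (GGCGCC) and the core of a metal response element (TGCNCNC). Of 32851 windows in the table, 8.3%, 11.9% and 51% held these letters, so a match is common, above all for the metal response element core, and only describes the sequence. Hamp lies beside its duplicate Hamp2 on chromosome 7. The 250 bases before the start of each are shown first, at chr7:30944030-30944279 and chr7:30924182-30924431, both on the minus strand, with STAT and BMP element matches in capitals.
Hamp: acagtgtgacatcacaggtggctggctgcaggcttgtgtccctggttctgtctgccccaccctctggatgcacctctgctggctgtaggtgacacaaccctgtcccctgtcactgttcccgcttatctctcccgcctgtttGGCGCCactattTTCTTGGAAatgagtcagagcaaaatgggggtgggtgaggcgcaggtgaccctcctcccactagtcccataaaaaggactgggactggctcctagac
Hamp2: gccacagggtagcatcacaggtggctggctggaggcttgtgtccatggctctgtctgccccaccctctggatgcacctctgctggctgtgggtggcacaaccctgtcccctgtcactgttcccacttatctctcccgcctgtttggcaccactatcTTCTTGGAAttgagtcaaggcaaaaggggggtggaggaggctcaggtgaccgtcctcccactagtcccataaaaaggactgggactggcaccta
Hamp held the BMP element letters 109 bases and the STAT letters 97 bases before its start. Hamp2 held the STAT letters 94 bases before its start and no GGCGCC. Of 247 bases aligned without a gap, 227 (91.9%) were identical, and the 6 letters of the Hamp element aligned to Hamp2 with the single substitution G4A, counted from the first G of the element, with the Hamp base first.

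Mt1 and Mt2 are neighbours on chromosome 8, and their sequences are shown because their levels moved together from mouse to mouse, as described below. For Mt2 the 250 bases before the start are given (chr8:94172368-94172617, plus strand), and for Mt1 the first 30 bases after the start of its window's transcript (chr8:94179089-94179118, plus strand), with metal response element cores in capitals on either strand.
Mt2: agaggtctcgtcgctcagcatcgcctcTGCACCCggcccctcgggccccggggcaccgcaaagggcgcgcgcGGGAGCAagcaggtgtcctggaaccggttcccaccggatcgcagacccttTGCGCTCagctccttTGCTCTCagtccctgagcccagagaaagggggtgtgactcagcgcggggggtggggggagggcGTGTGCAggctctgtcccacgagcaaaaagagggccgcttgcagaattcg
Mt1: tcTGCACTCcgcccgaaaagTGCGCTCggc
Mt2 held 5 cores before its start and 6 in the window, and Mt1 held 3 in the window, at 23 bases before and at bases 3 and 21 after the start. The transcript start of this Mt1 window lies inside the annotated Mt1 gene, which begins at chr8:94178883. For Cp, the gene with the clearest difference between groups, the 129 bases before the annotated gene start are shown (chr3:19956804-19956932, plus strand), and for Steap4, a metalloreductase of the iron transport list below, the 250 bases before the start (chr5:7960222-7960471, plus strand), with STAT matches in capitals.
Cp: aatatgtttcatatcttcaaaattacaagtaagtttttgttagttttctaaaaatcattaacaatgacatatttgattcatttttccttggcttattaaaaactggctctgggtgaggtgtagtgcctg
Steap4: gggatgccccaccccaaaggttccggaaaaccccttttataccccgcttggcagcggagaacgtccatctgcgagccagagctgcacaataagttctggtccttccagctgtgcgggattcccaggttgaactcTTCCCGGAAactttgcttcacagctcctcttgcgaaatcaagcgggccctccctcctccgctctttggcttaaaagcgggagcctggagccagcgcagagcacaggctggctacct
The Cp stretch held neither the STAT nor the BMP element letters. Steap4 held STAT letters 116 bases before its start. Absence of these letters says only that they are not in this window.

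Cyp2c70, read first as a check of the labels, averaged 10.51 ± 0.17 log2 units in KO_UDCA (SD, n = 6), 10.65 ± 0.12 in KO_chow (n = 5), 11.43 ± 0.14 in WT_UDCA (n = 6) and 11.49 ± 0.14 in WT_chow (n = 5), with no overlap between genotypes. Signal remained in knockout livers, and the labels do not name the deleted part of the gene. KO_chow mice were spread most widely over all genes: on the first principal component (26.7% of the variance) they lay between 15.7 and 53.4, with replicates 2 and 5 at 53.4 and 51.9, while the other 3 groups lay between -13.1 and -0.66. Calls that involve KO_chow were therefore also checked without these 2 mice for the members and the genes of the 6 lists below. The cell type and acute phase markers, other than Lcn2, were not rechecked in this way. Liver RNA is a mixture, so fewer cells of a type and less RNA per cell cannot be told apart. Hepatocyte markers summed to 36573 to 37527 intensity units in KO_chow and 36028 to 38101 in WT_chow. In KO_chow vs WT_chow, 0 of 7 measured were called with limma, where 13.7% of all genes were called (unadjusted p below 0.05 in 0 of 7 and 25.5%). In KO_UDCA vs KO_chow, 0 of 7 were called, against 11.2% of all genes (unadjusted p below 0.05 in 1 of 7 and 23.9%). So few markers do not establish that hepatocyte content was equal.

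Hepcidin did not differ detectably between any of the groups. Hamp read 12.11, 12.04, 12.37, 11.97 and 12.01 log2 units in the 5 KO_chow livers, against 12.31, 11.99, 12.09, 12.11 and 11.75 in the 5 WT_chow livers. The lowest, median and highest livers read 12.1, 12.12 and 12.3 in KO_UDCA and 11.73, 12.08 and 12.29 in WT_UDCA. All 4 groups overlapped. Hamp was on average brighter than 99.9% of genes, and whether array signal is compressed at that end was not tested. The log2 change was 0.05 for KO_chow vs WT_chow (95% interval -0.17 to 0.27, limma adjusted p = 0.837) and 0.05 for KO_UDCA vs KO_chow (-0.16 to 0.26, adjusted p = 0.817). The 6 KO_UDCA livers had an SD of 0.08, against 0.16 in KO_chow, 0.19 in WT_UDCA and 0.21 in WT_chow. No test of these spreads was made. Across the 22 arrays, the 3 genes most like Hamp were Id4 (Pearson r = 0.72), Zfp407 (0.69) and Smad7 (0.67), the gene of an inhibitory SMAD. These correlations, like those below, describe arrays that share groups and have no p.

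Among the other genes of the hepcidin pathway, Tfr2 and Hjv were lower in KO_chow than in WT_chow, in a list whose share of calls was near that of all genes. Of 22 measured members of the list of hepcidin and its regulators, 1 was called higher and 2 lower at an adjusted p below 0.05, and the median change was 0.07, against -0.04 over all genes. In this comparison 13.7% of all genes were called, and 13.6% of the list. With limma, an unadjusted p below 0.05 was reached by 9 of 22 and by 25.5% of all genes. Tfr2, a second transferrin receptor that senses iron saturation, read 9.38, 9.25, 9.58, 9.41 and 9.03 in KO_chow, against 9.59, 9.65, 9.64, 9.49 and 9.99 in WT_chow. The groups met, with 1 KO_chow liver above the lowest WT_chow liver, and the change was -0.34 (SE 0.09, limma adjusted p = 0.0158). Hjv, the BMP coreceptor hemojuvelin, changed by -0.67 (SE 0.20, adjusted p = 0.0239) and Stat3 by 0.47 (SE 0.15, adjusted p = 0.0349). The groups overlapped for both Hjv and Stat3. Bmp6, Id1 and Smad7, also genes of BMP signalling, did not pass. The log2 difference was 0.09 for the ligand gene Bmp6 (limma adjusted p = 0.685). It was 0.76 for the target gene Id1 (adjusted p = 0.0815) and 0.23 for Smad7 (adjusted p = 0.436). Under 2 of 19 alternatives Id1 was called.

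In KO_UDCA vs KO_chow, which shares the KO_chow mice with the comparison above, 3 members of the hepcidin list were higher and 1 lower, or 18.2% of 22, where 11.2% of all genes were called. Tmprss6, a protease that cleaves hemojuvelin, changed by 0.33 (SE 0.09, limma adjusted p = 0.0205), Tfr2 by 0.30 (adjusted p = 0.0315) and Stat3 by -0.52 (adjusted p = 0.0187). Hamp2, the duplicate of Hamp whose promoter is shown above, read 7.59, 8 and 8.23 as lowest, median and highest in KO_UDCA, against 7.65, 7.64, 7.79, 7.61 and 7.45 in KO_chow. The KO_UDCA range reached into the KO_chow range through 1 liver, and the change was 0.34 (SE 0.11, adjusted p = 0.0487). Whether Hamp2 and Hamp differ in their response was not tested. Over 20 alternatives of this comparison, the call was lost in 12 for Hamp2, 8 for Tfr2, 5 for Stat3 and 4 for Tmprss6. Without KO_chow replicates 2 and 5, the calls for Tfr2, Tmprss6, Hamp2 and Stat3 were lost (adjusted p from 0.27 to 0.38), as were those of KO_chow vs WT_chow for Tfr2 (0.238), Hjv (0.312) and Stat3 (0.353).

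**Figure D1:**
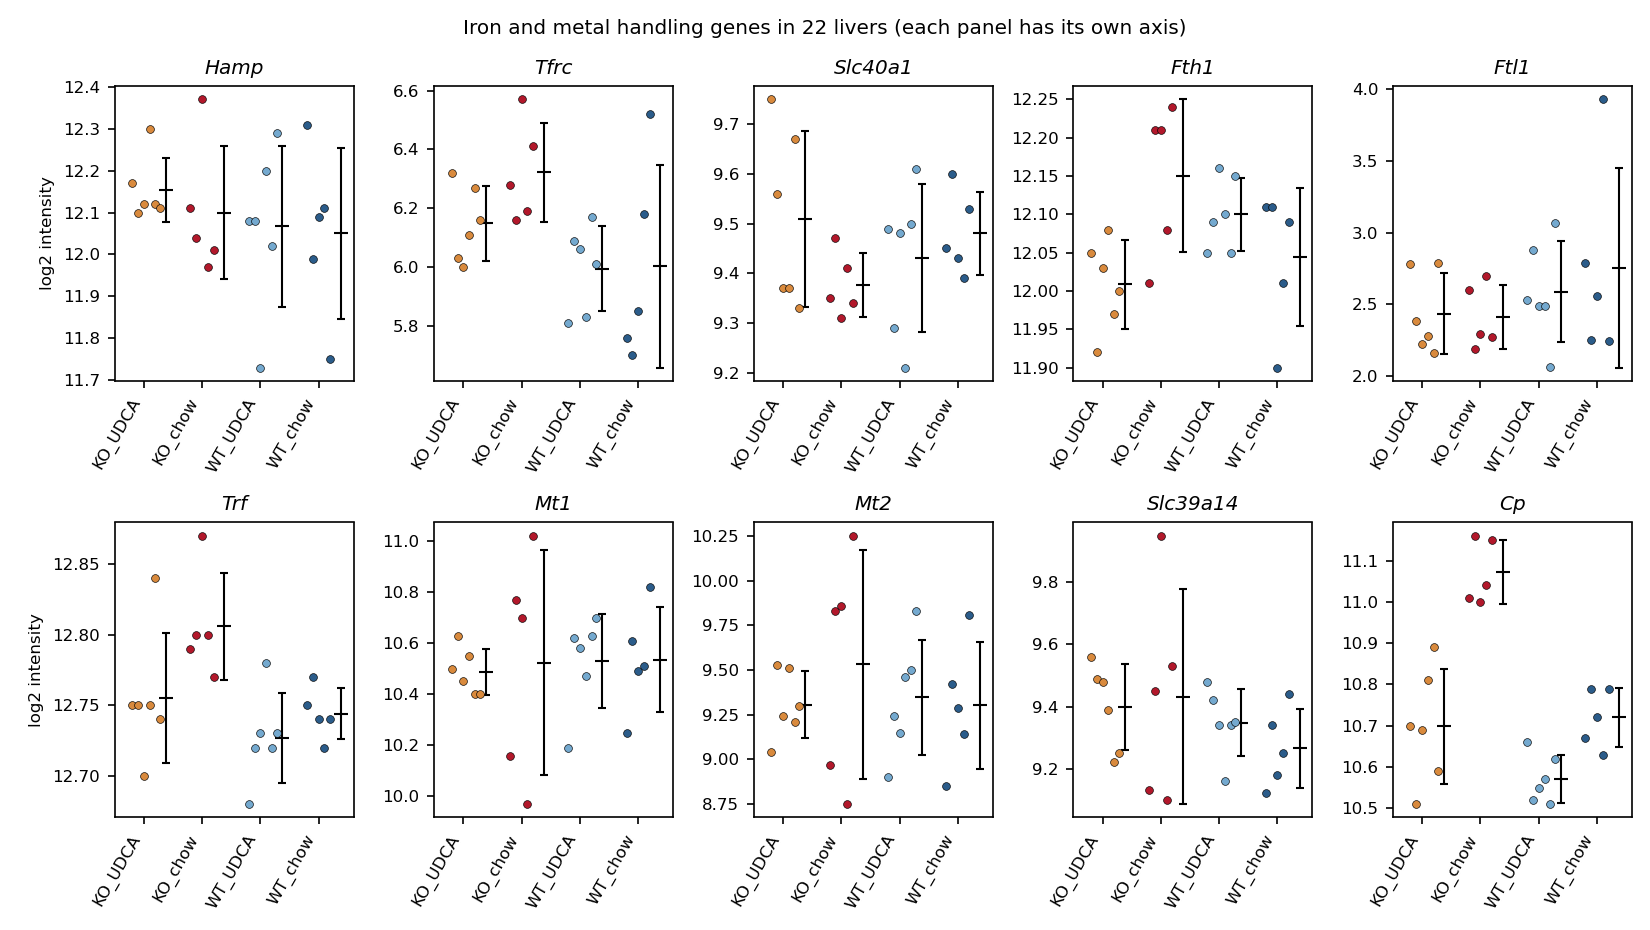
log2 intensity (vertical axes, each panel with its own scale) of the 10 iron and metal handling genes in 22 livers, by group. Points are mice and black marks are the group mean with SD (n = 6, 5, 6 and 5 from left to right). In the Cp panel the 5 KO_chow livers lie at 11 to 11.16, above every liver of the other groups, and in the Mt1 and Mt2 panels KO_chow has the widest spread.

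The uptake receptor, the exporter and the plasma carrier each differed by less than 1.5-fold between groups in every comparison. Tfrc read 6.28, 6.16, 6.57, 6.19 and 6.41 in KO_chow, against 5.76, 5.7, 5.85, 6.18 and 6.52 in WT_chow. WT_chow replicates 4 and 5 stood inside the KO_chow range and the other 3 below it. The log2 change was 0.32 (SE 0.13, limma adjusted p = 0.107), which was not called, and without WT_chow replicate 5 it was 0.45 and called (adjusted p = 0.011). In KO_UDCA the lowest, median and highest Tfrc levels were 6, 6.13 and 6.32, and in WT_UDCA 5.81, 6.03 and 6.17. The 3 genes most like Tfrc were Apc (r = 0.82), Chst15 (0.81) and Lin7c (0.80).

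Slc40a1 read 9.35, 9.47, 9.31, 9.41 and 9.34 in KO_chow, against 9.45, 9.6, 9.43, 9.39 and 9.53 in WT_chow. The ranges overlapped and the change was -0.11 (SE 0.09, limma adjusted p = 0.515). It ran over 9.33, 9.47 and 9.75 in KO_UDCA and 9.21, 9.49 and 9.61 in WT_UDCA (lowest, median, highest), and the KO_UDCA vs KO_chow change was 0.13 (SE 0.09, adjusted p = 0.387). Macrophages that recycle iron from red cells also express ferroportin, and the 3 genes most like Slc40a1 were Csf1r (r = 0.79), the macrophage growth factor receptor gene, Gpr182 (0.76), an endothelial gene, and Folr2 (0.75), a gene of resident macrophages. Over the same mice, 5 of 7 Kupffer cell markers were called lower with limma in KO_chow than in WT_chow, where 13.7% of all genes were called. The Kupffer cell markers summed to 1235 to 2024 intensity units in KO_UDCA, 886 to 1168 in KO_chow, 1291 to 1836 in WT_UDCA and 1440 to 1671 in WT_chow. Of 7 measured markers of monocyte-derived macrophages, 7 were called higher, with sums of 420 to 499 in KO_UDCA, 702 to 3459 in KO_chow, 400 to 458 in WT_UDCA and 400 to 447 in WT_chow. Sinusoidal endothelial markers summed to 1648 to 1917 in KO_chow and 1812 to 2352 in WT_chow, with 1 of 7 called higher and 2 called lower. The part of these cells in the Slc40a1 level was not tested.

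Trf had the smallest spread of the 10. All 22 livers lay within 0.18 log2 units, from 12.68 to 12.87, and the pooled SD within groups was 0.0347, against a median of 0.196 over all genes. Trf was also the brightest of the 10, on average above 100% of genes after rounding, and Fth1 was above 99.9%. Whether array signal is compressed at this bright end, where spreads and changes would look smaller, was not tested. Trf read 12.79, 12.8, 12.87, 12.8 and 12.77 in KO_chow, against 12.75, 12.77, 12.74, 12.72 and 12.74 in WT_chow. The ranges touched, and the change was 0.06 (SE 0.06, limma adjusted p = 0.555). It ran over 12.7, 12.75 and 12.84 in KO_UDCA and 12.68, 12.73 and 12.78 in WT_UDCA (lowest, median, highest). The 3 genes most like Trf were Canx (r = 0.83), Fgd6 (0.80) and Mug2 (0.79).

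The ferritin genes were not called in any comparison. Fth1, the subunit that oxidises iron, read 12.01, 12.21, 12.21, 12.08 and 12.24 in KO_chow, against 12.11, 12.11, 11.9, 12.01 and 12.09 in WT_chow. The ranges overlapped and the change was 0.11 (SE 0.07, limma adjusted p = 0.352). In KO_UDCA Fth1 read 11.92, 12.01 and 12.08 (lowest, median, highest), against 12.05, 12.09 and 12.16 in WT_UDCA. The KO_UDCA vs KO_chow change was -0.14 (95% interval -0.28 to -0.01, adjusted p = 0.182), and the genotype by diet interaction was -0.20 (adjusted p = 0.285), so neither passed after adjustment. The 3 genes most like Fth1 were Pfn1, Traj44 and Mrps18b (r = 0.79 each).

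The row annotated Ftl1 lay below the array median in all 22 livers, and its level is at the dim end of the arrays, so the size of any change in it is not exact. Ftl1 read 2.6, 2.19, 2.29, 2.7 and 2.27 in KO_chow, against 2.79, 2.25, 2.56, 3.93 and 2.24 in WT_chow. WT_chow replicate 4, at 3.93, was the highest of all livers, and the change was -0.34 (SE 0.24, limma adjusted p = 0.408). KO_UDCA livers ran over 2.16, 2.33 and 2.79 and WT_UDCA livers over 2.06, 2.51 and 3.07 (lowest, median, highest). The 3 genes most like it were Tmem151b (r = 0.70), Lsmem2 and Rbm3os (0.69 each). Ferritin light chain has many processed copies in the mouse genome, and the labels do not say which part of the transcript the probes read.

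Slc39a14 (also called Zip14) did not differ detectably between groups. It read 9.13, 9.45, 9.95, 9.1 and 9.53 in KO_chow, against 9.12, 9.34, 9.18, 9.25 and 9.44 in WT_chow. KO_chow replicate 3 was the highest liver and KO_chow replicate 4 the lowest, and the change was 0.17 (SE 0.12, limma adjusted p = 0.426). KO_UDCA livers ran over 9.22, 9.44 and 9.56 and WT_UDCA livers over 9.16, 9.35 and 9.48 (lowest, median, highest). Its 3 most similar genes were Tgm1 (r = 0.83), Tnfrsf21 (0.82) and Slc39a7 (0.79), whose protein moves zinc out of the endoplasmic reticulum.

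The metallothioneins varied more between mice of a group than between groups. Mt1 read 10.16, 10.77, 10.7, 9.97 and 11.02 in KO_chow, against 10.25, 10.61, 10.49, 10.51 and 10.82 in WT_chow. Mt2 read 8.97, 9.83, 9.86, 8.75 and 10.25 in KO_chow, against 8.85, 9.42, 9.29, 9.14 and 9.81 in WT_chow. In the UDCA groups, Mt1 ran over 10.4, 10.48 and 10.63 in KO_UDCA and 10.19, 10.6 and 10.7 in WT_UDCA, and Mt2 over 9.04, 9.27 and 9.53 in KO_UDCA and 8.9, 9.35 and 9.83 in WT_UDCA (lowest, median, highest). In both genes KO_chow replicates 1 and 4 were low and replicates 2, 3 and 5 high, so that KO_chow reached below and above most other livers. The KO_chow vs WT_chow change was -0.01 for Mt1 (95% interval -0.32 to 0.30, limma adjusted p = 0.98) and 0.23 for Mt2 (-0.24 to 0.70, adjusted p = 0.59). For KO_UDCA vs KO_chow it was -0.04 for Mt1 (adjusted p = 0.918) and -0.23 for Mt2 (adjusted p = 0.595). Without KO_chow replicates 2 and 5, both of which are among the high livers, KO_chow vs WT_chow was -0.26 for Mt1 and -0.11 for Mt2, and KO_UDCA vs KO_chow was 0.21 and 0.11. In 3 of these 4 cases the sign differed from that over all mice, and 0 were called. The span from lowest to highest liver was 0.23 for Mt1 and 0.49 for Mt2 in KO_UDCA, 1.05 and 1.5 in KO_chow, 0.51 and 0.92 in WT_UDCA, and 0.58 and 0.96 in WT_chow.

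Mt1 and Mt2 varied together among the mice of a group. Deviations from the group mean had r = 0.93 over the 22 arrays, and r within groups was 0.60 in KO_UDCA, 1.00 in KO_chow, 0.76 in WT_UDCA and 0.98 in WT_chow. Of the 45 pairs among the 10 genes, 4 had r above 0.5 and 0 below -0.5. Besides Mt1 with Mt2 these were Mt1 with Slc39a14 (0.61), Fth1 with Mt1 (0.55) and Mt2 with Slc39a14 (0.53), measured on the same arrays. All 10 genes were chosen for metal handling, so a theme shared by the pairs was set by that choice. For the pairs other than Mt1 with Mt2, r was not read within groups. KO_chow had the widest spread of Slc39a14 (SD 0.35, against 0.11 to 0.14 in the other groups), as of Mt1 and Mt2, so its mice weigh most in these values. Mt1 and Mt2 are close in sequence, and whether probes of one also read the other was not tested. The other genes most like Mt2 were Map2k3 (r = 0.81) and Serpina3n (0.79), an acute phase gene, and those most like Mt1 were Ippk (0.78) and Dysf (0.77). Mtf1, the zinc-sensing factor that drives metallothionein genes through metal response elements, differed by 0.01 in KO_chow vs WT_chow (adjusted p = 0.965) and by 0.04 in KO_UDCA vs KO_chow (adjusted p = 0.864).

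**Figure D2:**
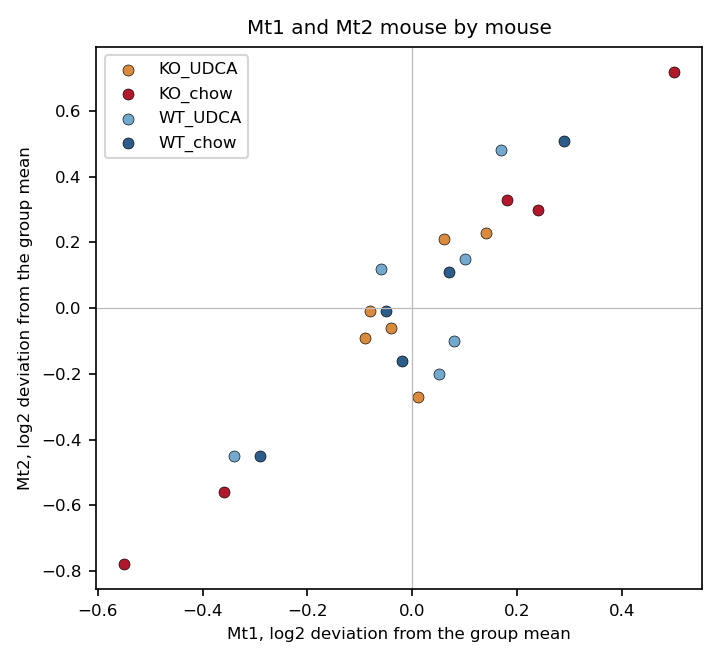
Each point is 1 liver, with the log2 deviation of Mt1 (horizontal) and Mt2 (vertical) from the mean of its group, coloured by group. Both deviations rise together (r = 0.93 over 22 arrays), and KO_chow livers span the widest range, from -0.55 to 0.50 for Mt1 and from -0.78 to 0.72 for Mt2.

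Cp was the gene of the 10 that changed. It read 11.01, 11.16, 11, 11.04 and 11.15 in KO_chow, against 10.67, 10.79, 10.72, 10.63 and 10.79 in WT_chow. Every KO_chow liver was above every WT_chow liver, and Cp was 1.27-fold higher in KO_chow (log2 change 0.35, SE 0.08, limma adjusted p = 0.00276). It was 1 of 10 genes called, the only one, where 13.7% of all genes were called in this comparison (7.69% higher), and 1 of 10 whose groups did not overlap, as for 9.43% of all genes. The share of the 10 is thus near that of the whole array. At an unadjusted p below 0.05, 2 of 10 passed and 25.5% of all genes. The median change of the 10 was 0.09, against -0.04 over all genes, and for 8 of 10 the 95% interval lay within 1.5-fold in either direction.

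Cp was lower in UDCA-fed knockouts than in knockouts on chow, at levels that overlapped those of wild types. The 6 KO_UDCA livers read 10.51, 10.7 and 10.89 (lowest, median, highest), against 11 to 11.16 in KO_chow, with no overlap. The log2 change was -0.37 (SE 0.07, limma adjusted p = 0.00151), or 1.29-fold lower in KO_UDCA. Cp was again the single gene called of 10, where 11.2% of all genes were called (6.22% lower and 5.03% higher), and the single gene of 10 without overlap, as for 5.89% of all genes. An unadjusted p below 0.05 was reached by 2 of 10 and by 23.9% of all genes. Because the KO_chow mice enter both comparisons, the 2 changes are not separate evidence. Against WT_chow, Cp in KO_UDCA differed by -0.02 (95% interval -0.17 to 0.13, adjusted p = 0.992), and 0.025% of all genes and 0 of 10 were called there with limma (unadjusted p below 0.05 in 5.62% of all genes and 0 of 10). In KO_UDCA vs WT_UDCA it differed by 0.13 (-0.01 to 0.27, adjusted p = 0.922), with 0.0167% of all genes and 0 of 10 called with limma (unadjusted p below 0.05 in 5.45% and 0 of 10).

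In wild types the difference in Cp between diets did not pass adjustment. WT_UDCA livers read 10.51, 10.56 and 10.66 (lowest, median, highest), against 10.63 to 10.79 in WT_chow, and the ranges overlapped. The change was -0.15 (SE 0.07, limma adjusted p = 0.888), in a comparison in which 0% of all genes were called with limma, and 5.57% of all genes and 1 of 10 had an unadjusted p below 0.05. The genotype by diet interaction of Cp was -0.22 (SE 0.10, adjusted p = 0.284), where 2.67% of all genes and 0 of 10 were called with limma (unadjusted p below 0.05 in 16.3% and 2 of 10), so a different response of Cp to UDCA in knockouts was not established. Cp averaged 10.7 ± 0.14 in KO_UDCA, 11.07 ± 0.08 in KO_chow, 10.57 ± 0.06 in WT_UDCA and 10.72 ± 0.07 in WT_chow (SD). KO_chow was thus highest and WT_UDCA lowest, and the differences of KO_UDCA from both wild type groups did not pass the test.

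The call for Cp held under all 19 alternatives of KO_chow vs WT_chow (log2 change 0.29 to 0.40, limma adjusted p from 0.000431 to 0.0495) and all 20 of KO_UDCA vs KO_chow (-0.41 to -0.32, adjusted p from 0.00021 to 0.0388). The weakest of these was the fit without KO_chow replicates 2 and 5, in which Cp changed by 0.29 (adjusted p = 0.0495) and by -0.32 (adjusted p = 0.0388). Cp also responds in the acute phase, and 6 of 15 acute phase genes were called higher with limma in KO_chow than in WT_chow, against 13.7% of all genes. Lcn2, also in the iron transport list below, is among them. The 15 genes summed to 27577 to 30431 intensity units in KO_UDCA, 29297 to 41023 in KO_chow, 27226 to 29129 in WT_UDCA and 26178 to 29619 in WT_chow. Cholangiocyte markers, 7 of 7 called higher, summed to 264 to 403 in KO_UDCA, 616 to 1241 in KO_chow, 228 to 278 in WT_UDCA and 240 to 269 in WT_chow. The part of these in the Cp result was not tested. The 3 genes most like Cp over the 22 arrays were Bzw1 (r = 0.94), Far1 (0.93) and Nbeal1 (0.91).

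**Figure D3:**
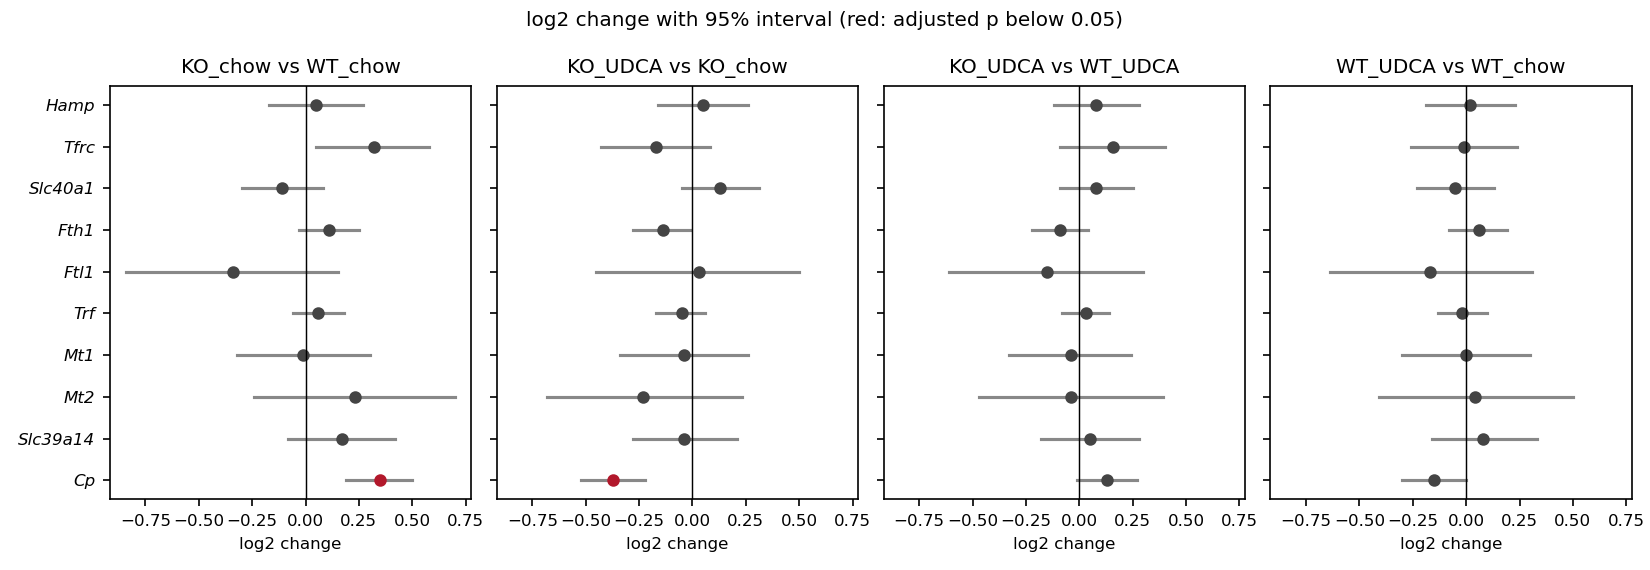
log2 change (horizontal axis, point) with its 95% interval (line) for the 10 genes in 4 comparisons. Cp is called in the first (0.35) and the second (-0.37), drawn in red, and 0 of 10 in the other 2.

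Around Cp, the genes of copper handling changed in part. Of 11 measured, 2 were higher and 3 lower in KO_chow than in WT_chow (45.5%, against 13.7% of all genes), with a median change of -0.20, against -0.04 over all genes. Ccs, the copper chaperone for superoxide dismutase, changed by -0.50 (SE 0.11, limma adjusted p = 0.00351), and Atp7b, the liver copper pump that loads ceruloplasmin, by -0.55 (SE 0.15, adjusted p = 0.0166). The copper chaperone Atox1 changed by 0.31 (adjusted p = 0.0174) and the pump Atp7a by 0.35 (adjusted p = 0.0219). In KO_UDCA vs KO_chow, 1 was higher and 2 lower of 11 (27.3%, against 11.2% of all genes): Ccs changed by 0.43 (adjusted p = 0.0106), Atox1 by -0.34 (adjusted p = 0.0101) and Atp7a by -0.41 (adjusted p = 0.00841), while Atp7b at 0.40 did not pass (adjusted p = 0.0825). None of these copper calls was kept without KO_chow replicates 2 and 5. In that fit the KO_chow vs WT_chow values were 0.33 for Atp7a (adjusted p = 0.135), close to its value over all mice, -0.31 for Ccs (adjusted p = 0.0973), -0.37 for Atp7b (adjusted p = 0.197) and 0.20 for Atox1 (adjusted p = 0.259). The KO_UDCA vs KO_chow values were -0.39 for Atp7a (adjusted p = 0.0803), 0.23 for Ccs (adjusted p = 0.255) and -0.22 for Atox1 (adjusted p = 0.205).

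Among genes of cellular iron transport, storage and sensing, Lcn2 and Steap4 changed by over 1 log2 unit. Of 18 measured, 5 were higher and 4 lower in KO_chow than in WT_chow (50%, against 13.7% of all genes). Lcn2, the siderophore-binding lipocalin, is also on the list of acute phase genes above and is counted in both lists. Lcn2 read 9.92, 12.07, 11.3, 9.92 and 11.77 in KO_chow, against 7.87, 8.67, 8.42, 8.28 and 9.49 in WT_chow. Every KO_chow liver was higher, though replicates 1 and 4 less than the rest, and the change was 2.45 (SE 0.34, limma adjusted p = 2.67e-05). Steap4, a metalloreductase that reduces iron and copper, read 9.86, 10.54, 11.11, 9.64 and 10.98 in KO_chow, against 8.95, 9, 9, 9.03 and 9.26 in WT_chow. The groups did not overlap, and the change was 1.37 (SE 0.20, adjusted p = 5.67e-05). Slc11a2, the divalent metal importer DMT1, changed by 0.76 (SE 0.16, adjusted p = 0.00241) and Steap2 by 0.73 (SE 0.17, adjusted p = 0.00523).

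Of these 18 genes, 3 were higher and 4 lower in KO_UDCA than in KO_chow (38.9%, against 11.2% of all genes). Lcn2 read 8.1, 8.34 and 8.7 (lowest, median, highest) in KO_UDCA and changed by -2.62 (SE 0.32, limma adjusted p = 1.06e-05), and Steap4 read 8.88, 8.95 and 9.34 and changed by -1.42 (SE 0.19, adjusted p = 3.35e-05). Both genes were lower in each KO_UDCA liver than in each KO_chow liver. Their genotype by diet interactions were -2.51 (adjusted p = 0.00378) and -1.27 (adjusted p = 0.0123), 2 of 3 called in this list. Without KO_chow replicates 2 and 5, Lcn2 changed by 1.83 in KO_chow vs WT_chow (adjusted p = 0.000629) and by -2.01 in KO_UDCA vs KO_chow (adjusted p = 0.000305), and Steap4 by 1.15 (adjusted p = 0.00214) and -1.20 (adjusted p = 0.00168). The calls for Slc11a2 and Steap2 were lost there, at 0.62 (adjusted p = 0.0577) and 0.56 (adjusted p = 0.071) in KO_chow vs WT_chow. The interaction of Lcn2 was still called there (-1.90, adjusted p = 0.0176) and that of Steap4 was not (-1.05, adjusted p = 0.0838).

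**Figure D4:**
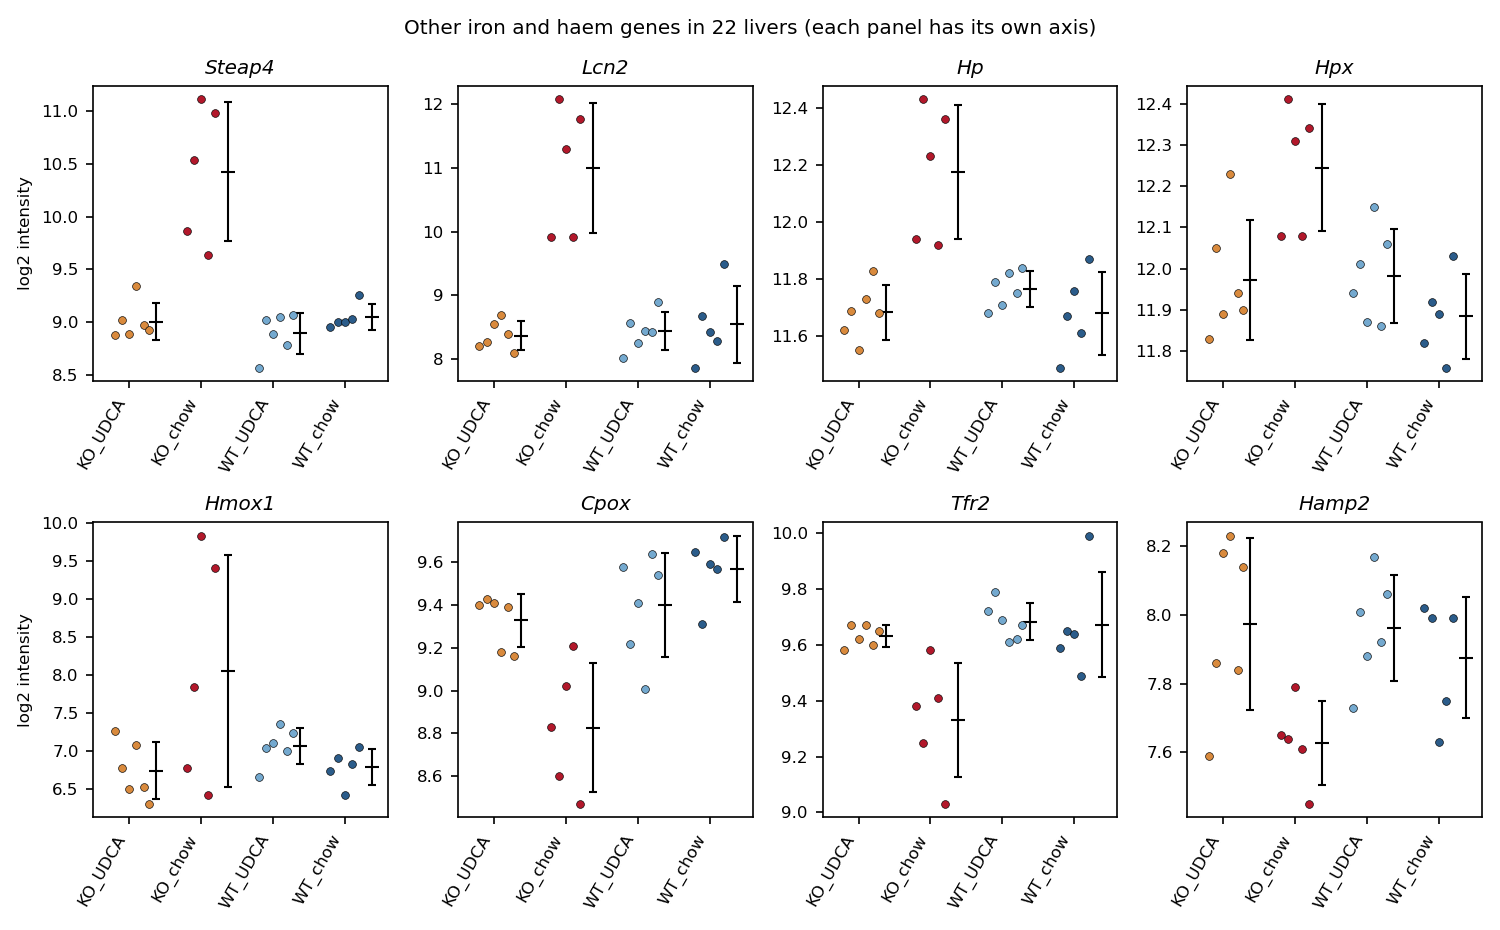
log2 intensity of 8 further genes of iron and haem handling in 22 livers, by group, with the mean and SD in black (n = 6, 5, 6 and 5 from left to right, each panel with its own axis). Lcn2 and Steap4 lie higher in all 5 KO_chow livers than in any other, while Hmox1 is high in only some of them (6.42 to 9.83).

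Genes of haem and haemoglobin handling moved in both directions. Of 17 measured, 4 were higher and 3 lower in KO_chow than in WT_chow (41.2%, against 13.7% of all genes). Hp, the plasma haemoglobin binder haptoglobin, read 11.94, 12.43, 12.23, 11.92 and 12.36 in KO_chow, against 11.49, 11.67, 11.76, 11.61 and 11.87 in WT_chow. The groups did not overlap, and the change was 0.50 (SE 0.10, limma adjusted p = 0.00121). Hpx, the haem binder hemopexin, changed by 0.36 (SE 0.09, adjusted p = 0.00951), and Flvcr1, described as a haem exporter, by 0.57 (SE 0.15, adjusted p = 0.0123). Cpox, coproporphyrinogen oxidase of haem synthesis, read 8.83, 8.6, 9.02, 9.21 and 8.47 in KO_chow, against 9.65, 9.31, 9.59, 9.57 and 9.72 in WT_chow, with no overlap and a change of -0.74 (SE 0.13, adjusted p = 0.000513).

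Hmox1, haem oxygenase 1, was spread widely among KO_chow mice (SD 1.53, against 0.24 in WT_chow). It read 6.77, 7.84, 9.83, 6.42 and 9.41 in KO_chow, against 6.74, 6.9, 6.42, 6.83 and 7.05 in WT_chow. KO_chow replicates 2, 3 and 5 lay above every WT_chow liver and replicates 1 and 4 did not, and the change of 1.26 (SE 0.43) was not called (limma adjusted p = 0.0538). Of the 17 genes, 3 were higher and 3 lower in KO_UDCA than in KO_chow (35.3%, against 11.2% of all genes). Hp changed by -0.49 (SE 0.09, adjusted p = 0.00122), Hpx by -0.27 (adjusted p = 0.0481), Hmox1 by -1.31 (adjusted p = 0.0413), Urod, uroporphyrinogen decarboxylase, by 0.31 (adjusted p = 0.00701) and Cpox by 0.50 (adjusted p = 0.0114). Over 20 alternatives, the call was lost in 14 for Hpx, 10 for Hmox1, 2 for Cpox, 1 for Urod and 0 for Hp. Without KO_chow replicates 2 and 5, Hp held (limma adjusted p = 0.0467), whereas Urod (0.152), Hmox1 (0.329), Hpx (0.399) and Cpox (0.246) did not. In KO_chow vs WT_chow without these mice, Hp (adjusted p = 0.0364) and Cpox (0.0182) held, and Hpx (0.147) and Flvcr1 (0.235) did not. Erythroid markers, a sign of blood in the tissue, were called with limma in 0 of 5 measured in KO_chow vs WT_chow, against 13.7% of all genes. In KO_UDCA vs KO_chow 0 of 5 were called, against 11.2%. With limma, 1 of 5 had an unadjusted p below 0.05 in each, against 25.5% and 23.9% of all genes. The sums were 122 to 178 in KO_UDCA, 108 to 147 in KO_chow, 133 to 167 in WT_UDCA and 138 to 196 in WT_chow, and Epb42 was below the array median in every liver.

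Of 12 measured genes of iron-sulphur cluster assembly, 0 were higher and 3 lower in KO_chow than in WT_chow (25%, against 13.7% of all genes), with a median change of -0.22, against -0.04 over all genes. Glrx5, a glutaredoxin of cluster transfer, changed by -0.46 (SE 0.11, limma adjusted p = 0.00567), the ferredoxin Fdx1 by -0.35 (adjusted p = 0.0233) and the cluster carrier Nfu1 by -0.25 (adjusted p = 0.0251). For KO_UDCA vs KO_chow, 4 were higher and 0 lower (33.3%, against 11.2% of all genes), among them Glrx5 at 0.39 (adjusted p = 0.0162) and Nfu1 at 0.25 (adjusted p = 0.0281). None of these calls held without KO_chow replicates 2 and 5, where the Glrx5 values were -0.29 (adjusted p = 0.138) and 0.22 (adjusted p = 0.301) in the 2 comparisons.

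Of 20 measured genes of zinc and manganese transport and sensing, 3 were higher and 0 lower in KO_chow than in WT_chow, or 15%, near the 13.7% of all genes called. The zinc importers Slc39a10 and Slc39a6 changed by 0.62 (SE 0.15, limma adjusted p = 0.00561) and 0.70 (SE 0.20, adjusted p = 0.0218), and the vesicular zinc transporter Slc30a4 by 0.64 (SE 0.17, adjusted p = 0.0139). Under UDCA in knockouts, Slc39a10 changed by -0.60 (adjusted p = 0.00637) and Slc30a4 by -0.62 (adjusted p = 0.0152), the 2 genes of 20 called there (10%, against 11.2% of all genes). These calls were lost without KO_chow replicates 2 and 5, where the KO_chow vs WT_chow value was 0.49 for Slc39a10 (adjusted p = 0.0978), 0.29 for Slc39a6 (adjusted p = 0.388) and 0.22 for Slc30a4 (adjusted p = 0.245).

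Over all 6 lists, 30 of 100 measured genes were called in KO_chow vs WT_chow (15 higher, 15 lower), against 13.7% of all genes, and 26 of 100 in KO_UDCA vs KO_chow (14 higher, 12 lower), against 11.2%. The shares of all genes include dim ones: 12928 of 24011 passed the filter on dim genes. The share called among those was not read, so the lists were not set against genes of like brightness. In KO_UDCA vs WT_UDCA, KO_UDCA vs WT_chow and WT_UDCA vs WT_chow, 0 of 100 were called with limma, against 0.0167%, 0.025% and 0% of all genes. With limma, 3, 2 and 0 of 100 had an unadjusted p below 0.05, against 5.45%, 5.62% and 5.57% of all genes. Without KO_chow replicates 2 and 5, 5 of the 30 calls held (Lcn2, Steap4, Cpox, Hp and the mitochondrial iron importer gene Slc25a28, named here after its values were seen), and 3 of the 26 held (Lcn2, Steap4 and Hp). In that fit 5 and 3 of the 100 listed genes were called, against 4.54% and 2.8% of all genes. The share of the lists was thus near that of the whole array there.

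**Figure D5:**
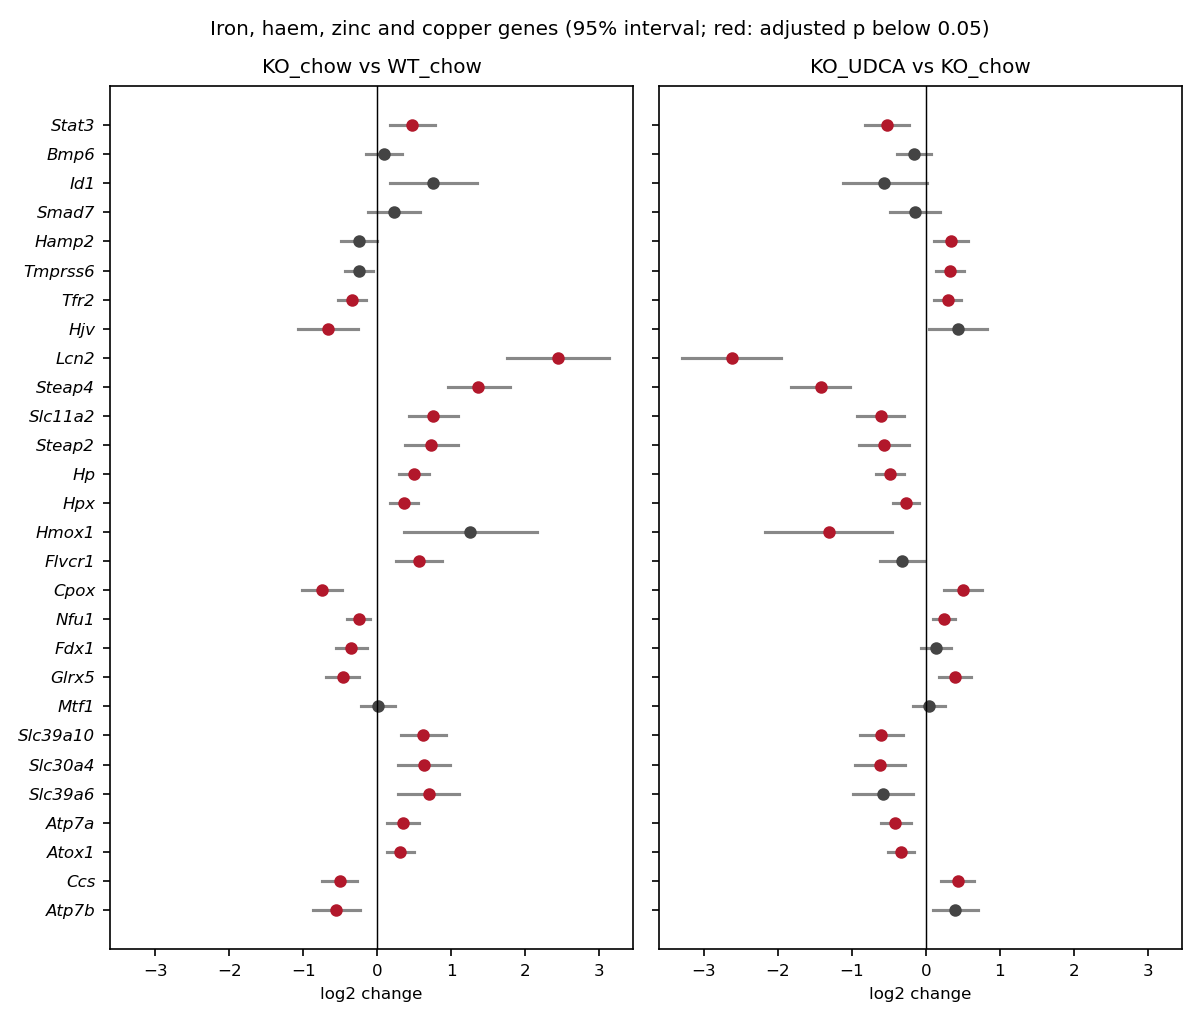
log2 change (horizontal axis, point) with its 95% interval (line) for 28 genes of iron, haem, zinc and copper handling, in KO_chow vs WT_chow on the left and KO_UDCA vs KO_chow on the right, with called genes in red. Both panels use the same KO_chow mice. Lcn2 is at 2.45 on the left and -2.62 on the right, and Cpox at -0.74 and 0.50.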

How the data were processed

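The deposited values are one series table of microarray intensity values, which the authors made from 22 arrays by RMA with a probe-level model on the unlogged scale, per the labels. The submitters' processing notes name RMA; the sources used here give neither its version nor the genome build. Of 24973 rows, 24015 had 1 gene symbol in the platform annotation and 958 did not, and for 4 symbols on several rows the brightest row was kept, which left 24011 genes. Values were converted to log2 without an offset. With limma 3.58.1 (R 4.3.3), group means were estimated from all 22 arrays together, with a spread shared by the 4 groups and two-sided p-values adjusted by Benjamini-Hochberg over all 24011 genes. A gene was called at an adjusted p below 0.05. The script was tested on simulated data. Replicates are separate mice numbered in record order, so numbers pair nothing. The number of arrays limits the precision.

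The members, the 6 gene lists and the marker lists were chosen with earlier results of these data known. The genes named are the members, Hamp2, Tfr2, Bmp6, Id1, Smad7, Tmprss6, Hmox1, Hpx, Hp, Lcn2, Steap4, Mtf1 and Cyp2c70, up to 4 called genes of smallest adjusted p per list in KO_chow vs WT_chow and up to 2 in each other comparison, and the 3 genes most correlated with each member, leaving out predicted genes and small RNAs. Alternatives were another normalization, centring, a filter on dim genes, an offset of 16, array weights, a trended prior, a fit to only the groups compared, a block for sample numbers 1 to 15 against 16 to 22, and each array left out. Leaving out KO_chow replicates 2 and 5 together was added after the data were seen.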

Additional observations from a re-analysis of the deposited data

Results flagged for a closer look

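Of 200 groups of a gene examined for an array standing apart (the gap to the nearest other array against the group's range, by Dixon's criterion), 5 had one, and chance gives about 1 in 20. Of the 40 groups of the 10 members, 1 did: Hamp in KO_UDCA replicate 4 was 12.3 log2 units, with the other KO_UDCA livers at 12.1 to 12.17. Steap4 read 9.34 in the same KO_UDCA replicate 4, with the others at 8.88 to 9.02, and 9.26 in WT_chow replicate 5, with the others at 8.95 to 9.03. Id1 read 7.31 in WT_UDCA replicate 6, with the others at 5.98 to 6.39. Slc31a1, a copper importer gene outside the naming rule and named after its values were seen, read 9.75 in WT_chow replicate 1, with the others at 9.59 to 9.62.

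The effect of UDCA differed between the genotypes, by limma's test of the genotype by diet interaction, for 6 of 100 listed genes, where 2.67% of all genes were called. The interaction is the UDCA change in knockouts minus that in wild types on the log2 scale. It was -2.51 for Lcn2 (limma adjusted p = 0.00378), -1.27 for Steap4 (adjusted p = 0.0123), -0.58 for Hp (adjusted p = 0.0184) and -0.45 for Atox1 (adjusted p = 0.0424). It was 0.67 for Cpox (adjusted p = 0.0448) and 0.51 for Slc39a8, a zinc and iron importer gene named after its values were seen (adjusted p = 0.0481). Over 30 alternatives, the interaction call was lost in 21 for Atox1, 21 for Slc39a8, 17 for Cpox, 1 for Hp, 1 for Steap4 and 0 for Lcn2. Without KO_chow replicates 2 and 5 the call for Lcn2 held (-1.90, adjusted p = 0.0176), and those for Steap4 (adjusted p = 0.0838), Hp (0.117), Atox1 (0.243), Cpox (0.277) and Slc39a8 (0.28) did not.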

How the results depend on the processing

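Of 60 results of the members (10 genes in 6 comparisons), 59 kept their side of the threshold under every alternative run, and 0 called results changed direction. The exception was Tfrc in KO_chow vs WT_chow, called without WT_chow replicate 5 (log2 change 0.45, limma adjusted p = 0.011), which made the count of members called 2. With single arrays left out that count ran from 1 to 2. The filter on dim genes left 12928 genes and removed Ftl1. The same was read for 40 other genes of the lists, those fixed by name or called in any comparison. Of their 120 results (in KO_chow vs WT_chow, KO_UDCA vs KO_chow and the interaction), 49 kept their side of the threshold throughout. Cyp2c70 was not among the 40. The count of listed genes called was 30 in KO_chow vs WT_chow, 12 in a fit to only the groups compared and 5 without KO_chow replicates 2 and 5, with a range of 15 to 36 when single arrays were left out (16 without KO_chow replicate 2, 15 without KO_chow replicate 5). In KO_UDCA vs KO_chow it was 26, then 9, then 3, with a range of 11 to 32 (13 without KO_chow replicate 2, 11 without KO_chow replicate 5, 17 without KO_UDCA replicate 6). For the genotype by diet interaction it was 6, with 3 when the stretch of sample numbers was a block, 1 without KO_chow replicates 2 and 5, and a range of 3 to 12 when single arrays were left out. The cause of these shifts beyond fewer arrays was not tested. No paired analysis was possible because replicate numbers follow record order and pair nothing. Shared spread across groups can make p-values of comparisons with the more variable KO_chow group too small.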
